A study of Mus musculus with 4 samples.

Results

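The Id genes encode small helix-loop-helix proteins that lack the basic region with which bHLH transcription factors contact DNA. The members are the 4 genes *Id1*, *Id2*, *Id3* and *Id4*, taken by their gene symbols from a table of 23997 genes, and every member was found there. Their levels were compared between 2 populations of EGFP+ cells sorted from P3 cochleae. Lgr5+ progenitors came from mice with the Lgr5-EGFP-IRES-creERT2 allele, and Lgr6+ progenitors from mice that carry Lgr6-EGFP-IRES-CreERT2, so in each the *Lgr* locus drives both the EGFP used for sorting and an inducible Cre. The strain given for all libraries is C57BL/6. The labels list 4 libraries, 2 for each population, while the methods describe a division of each population's RNA into 3 portions, so the replicates may share an extraction. The authors merged them, and each gene has 1 FPKM value (sequenced fragments normalised to transcript length and library depth) in each population. The spread between replicates is therefore unknown, no test was possible, and all differences are a description of these 2 pools of cells.

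An Id protein pairs with an E protein, the ubiquitous class I bHLH factor that tissue-specific bHLH activators need as a partner, and the resulting dimer does not bind DNA. Id proteins thereby hold back differentiation, and their genes are classical targets of bone morphogenetic protein (BMP) signaling through Smad1, Smad5 and Smad9. In the developing cochlea Id1, Id2 and Id3 are known from prosensory cells, where they counter Atoh1 (also called Math1), the bHLH activator that specifies hair cells (HCs). Supporting cells (SCs) are the neighbours of HCs and the cells from which new HCs can arise in the newborn cochlea.

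The region before each gene's start is a place where such signals can act, and it is shown here as sequence. Whether it bears on the direction in which an Id gene differed was not tested. RefSeq windows of build GRCm38.p6 matched 3 of the 4 genes, *Id2*, *Id3* and *Id4*. Each line gives the 250 bases before the annotated start, 5′ to 3′ on the gene's strand, with capitals at every match, on either strand, to an E-box (CANNTG, the site of bHLH dimers), to a GC-rich Smad element (GGCGCC), to a CCAAT box (CCAAT) or to a TATA box (TATAAA).
Id2: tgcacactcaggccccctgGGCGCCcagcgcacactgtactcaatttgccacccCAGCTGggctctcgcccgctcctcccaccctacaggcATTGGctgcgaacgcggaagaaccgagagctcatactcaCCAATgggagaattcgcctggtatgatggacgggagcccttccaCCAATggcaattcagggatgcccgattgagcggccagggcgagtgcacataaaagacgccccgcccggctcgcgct
Id3: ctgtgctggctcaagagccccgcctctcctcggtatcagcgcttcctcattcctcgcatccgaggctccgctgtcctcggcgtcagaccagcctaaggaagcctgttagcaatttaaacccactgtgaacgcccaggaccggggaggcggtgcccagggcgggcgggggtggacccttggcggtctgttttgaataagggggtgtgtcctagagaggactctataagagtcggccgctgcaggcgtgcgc
Id4: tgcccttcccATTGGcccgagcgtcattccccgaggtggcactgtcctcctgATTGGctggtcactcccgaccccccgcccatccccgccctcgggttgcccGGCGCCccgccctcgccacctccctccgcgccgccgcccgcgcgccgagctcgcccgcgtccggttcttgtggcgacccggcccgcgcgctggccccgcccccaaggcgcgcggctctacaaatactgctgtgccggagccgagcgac

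The *Id2* window is chr12:25096093-25096342 on the minus strand, the *Id3* window is chr4:136143572-136143821 on the plus strand, and the *Id4* window is chr13:48260866-48261115 on the plus strand. The *Id2* window holds 1 E-box, 1 GC-rich Smad element and 3 CCAAT boxes, and the *Id4* window holds 1 GC-rich Smad element and 2 CCAAT boxes. No letters of the *Id3* window match any of these motifs, which says nothing of sites elsewhere. Over all 32851 windows of this length, 66.2% hold an E-box, 9.59% hold the GC-rich Smad element, 33.8% hold a CCAAT box and 12.4% hold a TATA box. The share of G and C was 62.8% in the windows of *Id2* and *Id3* and 75.6% in that of *Id4*, against a median of 52.4% over all windows. Such matches describe letters and are not evidence of binding.

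The Id genes did not move together. *Id1* and *Id3*, the most abundant members, had lower levels in Lgr6+ progenitors, *Id4*, the least abundant, had a higher level there, and *Id2* was near its Lgr5+ level. Changes are given as log2(FPKM + 1) of the Lgr6+ cells less that of the Lgr5+ cells and are negative where Lgr5+ cells had the higher level. The threshold for a call was 1.5-fold in either direction. By this rule 2 Id genes were called higher in Lgr5+ progenitors and 1 was called higher in Lgr6+ progenitors. Of the 13436 kept genes, those that reached an FPKM of 1 in either population, 23.3% were called higher in Lgr5+ and 28.5% in Lgr6+ cells. Among the 2274 genes that reached an FPKM of 50 in at least 1 population, as all 4 Id genes do, the shares were 29.1% and 14.9%. This minimum was chosen after the values were seen, and *Id4* reaches it only in Lgr6+ progenitors, where it is high, so its call cannot be read against the second share. A call is thus common in these libraries, and the count of Id genes called is not set apart from this background.

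**Figure D1:**
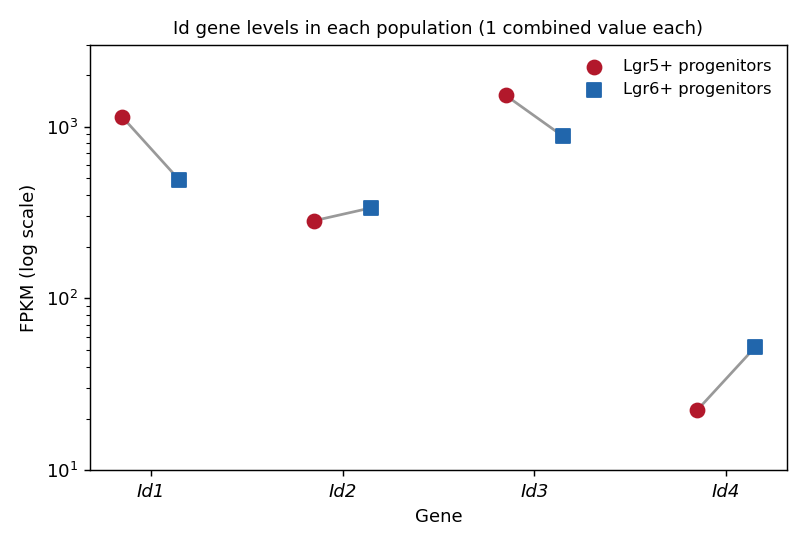
FPKM (vertical log axis) of the 4 Id genes (horizontal axis) in Lgr5+ progenitors (circles) and Lgr6+ progenitors (squares), with 1 combined value per population and no error bars. The lines of Id1 and Id3 go down toward Lgr6+ progenitors, that of Id4 goes up from 22.4 to 51.8, and that of Id2 is nearly level.

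*Id1* lies on chromosome 2 from 152736251 to 152737410 in GRCm38. It had an FPKM of 1143 in Lgr5+ and 488 in Lgr6+ cells. The Lgr5+ level was thus 2.35 times the Lgr6+ level, and the log2 change was -1.23. A change as low or lower was found for 1009 of the 13436 kept genes, or 7.51%. By level, *Id1* ranked 122 among the kept genes in Lgr5+ and 231 in Lgr6+ cells.

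*Id3*, on chromosome 4 from 136143822 to 136145392, was the most abundant Id gene in both populations. Its FPKM was 1523 in Lgr5+ and 878 in Lgr6+ cells, a ratio of 1.73 and a log2 change of -0.79. Among the kept genes 16.9% had a change as low or lower. Its rank by level was 86 in Lgr5+ and 125 in Lgr6+ cells. The call of *Id3* depends on the scaling: its log2 change was -0.53 when the FPKM values of both populations were scaled to the same sum and -0.37 after quantile normalization, and both are under 1.5-fold.

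*Id2*, on chromosome 12 from 25093799 to 25096092, was on the deposited scale the nearest to level of the members, with an FPKM of 283 in Lgr5+ and 337 in Lgr6+ cells. The log2 change of 0.25 was not past the fold threshold, and 40.8% of the kept genes had a change as high or higher. After quantile normalization the change was 0.56, still under 1.5-fold but farther from 0 than that of *Id3*. Its level ranked 429 in Lgr5+ and 307 in Lgr6+ cells. Without replicates, a difference of this size cannot be told from no difference.

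*Id4* had an FPKM of 22.4 in Lgr5+ and 51.8 in Lgr6+ cells, so the Lgr6+ level was 2.31 times the Lgr5+ level and the log2 change was 1.17. A change as high or higher was found for 1917 kept genes, or 14.3%. It ranked 3829 by level in Lgr5+ and 1827 in Lgr6+ cells. The table places *Id4* on chromosome 13 from 48044231 to 48264036, an interval it shares with *A330033J07Rik*, whereas RefSeq places the gene from 48261116 to 48266028. *A330033J07Rik* had an FPKM of 0.208 in Lgr5+ and 0.225 in Lgr6+ cells. How the authors divided fragments between these 2 genes is not given in the sources used here.

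**Figure D2:**
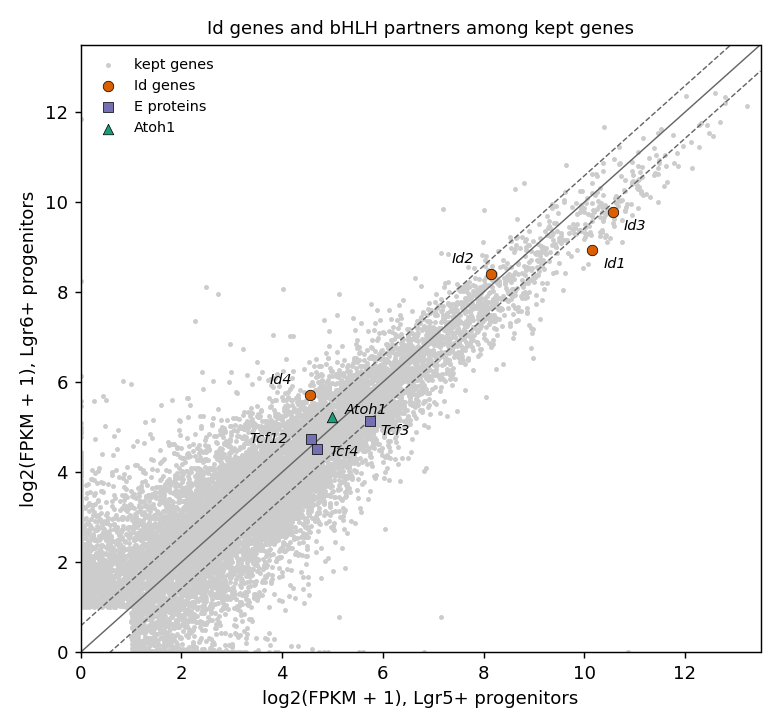
Each grey point is 1 of the 13436 kept genes, with log2(FPKM + 1) in Lgr5+ progenitors on the horizontal axis and in Lgr6+ progenitors on the vertical axis, and the dashed lines mark a 1.5-fold difference. Id1 and Id3 lie below the lower line, Id4 lies above the upper line, and Id2 lies between them with Tcf4, Tcf12 and Atoh1.

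FPKM is a level per length of transcript, so members can be ranked against each other. The order was the same in both populations, from *Id3* through *Id1* and *Id2* to *Id4*. Most ratios between members were nearer to 1 in Lgr6+ progenitors, except that of *Id1* to *Id3*, which was 0.751 in Lgr5+ and 0.555 in Lgr6+ cells. *Id3* was 67.9 times *Id4* in Lgr5+ and 16.95 times in Lgr6+ cells. *Id1* was 4.04 times *Id2* in Lgr5+ and 1.45 times in Lgr6+ cells. Whether neighbours in this order differ beyond their spread cannot be said, since no spread is known.

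The FPKM of the 4 genes summed to 2972 in Lgr5+ and to 1754 in Lgr6+ cells, so the Lgr5+ sum was 1.69 times the Lgr6+ sum. *Id3* held 51.2% of the Lgr5+ sum and 50.1% of the Lgr6+ sum. The part of *Id1* was 38.5% in Lgr5+ and 27.8% in Lgr6+ cells. *Id2* made up 9.53% in Lgr5+ and 19.2% in Lgr6+ cells, and *Id4* made up 0.754% and 2.95%. The Id pool of Lgr6+ progenitors thus held a smaller share of *Id1* and larger shares of *Id2* and *Id4*, with *Id3* near the same share.

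The sums of all FPKM values differ, 754163 in Lgr5+ and 627932 in Lgr6+ cells, and this bears on every change given here. Scaling to the same sum moved the median log2 change of the kept genes from 0.03 to 0.28. On that scale the log2 changes were -0.96 for *Id1*, -0.53 for *Id3*, 0.51 for *Id2* and 1.43 for *Id4*. The share of called genes that were higher in Lgr6+ progenitors was 55.0% on the deposited scale and 69.8% on that scale. Of the 10 alternatives that were run, only the 4 scalings could reverse a direction, since filters, pseudocounts and the fold threshold cannot. The direction of each Id gene was the same on the deposited scale and under these 4 scalings.

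**Figure D3:**
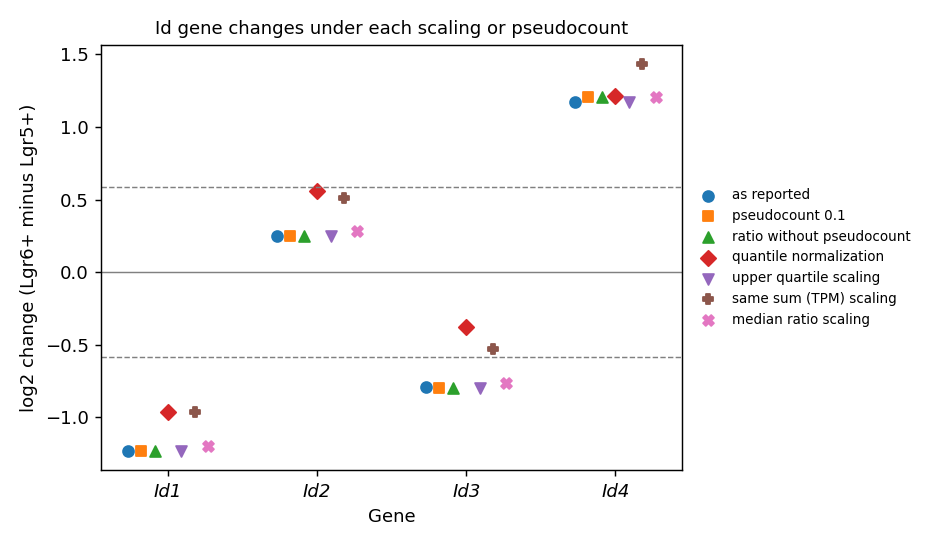
The vertical axis gives the log2 change of each Id gene (horizontal axis) as reported and under another pseudocount or scaling, 1 symbol per setting, and the dashed lines mark a 1.5-fold difference. Id1 stays between -1.23 and -0.96 and Id4 between 1.17 and 1.43, whereas Id3 crosses the lower line in 2 settings, quantile normalization and scaling to the same sum.

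The partners of the Id proteins were measured in the same libraries. Of the 3 E protein genes, *Tcf3*, which encodes E12 and E47, had an FPKM of 52.6 in Lgr5+ and 34.5 in Lgr6+ cells. Its log2 change of -0.60 was barely past the threshold and kept its call under 1 of 4 other scalings. *Tcf4*, which encodes E2-2, had 24.9 and 21.9, and *Tcf12*, which encodes HEB, had 22.8 and 25.5, neither of them past the threshold. The E protein genes together summed to 100.4 in Lgr5+ and 81.9 in Lgr6+ cells. The Id sum was 29.6 times the E protein sum in Lgr5+ and 21.4 times in Lgr6+ cells. No scaling of a whole population by 1 factor can change this ratio. Quantile normalization is not such a scaling, and the ratio was not computed after it. It moved the log2 change of *Id1* from -1.23 to -0.96 and of *Id3* from -0.79 to -0.37, and that of *Tcf3* from -0.60 to -0.55. These are ratios of RNA levels, and protein was not analysed here.

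*Atoh1*, the HC-specifying activator, had an FPKM of 30.9 in Lgr5+ and 36.4 in Lgr6+ cells, a log2 change of 0.23 that was not past the threshold. The Id sum was 96.3 times the *Atoh1* level in Lgr5+ and 48.3 times in Lgr6+ cells, and this ratio too was not computed after quantile normalization. *Id4* taken alone was below *Atoh1* in Lgr5+ progenitors, at 0.726 times its level, and above it in Lgr6+ progenitors, at 1.43 times. *Atoh1* is 1 of 45 listed class II activators, the bHLH factors that drive single lineages. Of these 45 genes, 13 were kept and 21 were listed at 0 in both populations.

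Among the 13 kept class II genes, 3 were called higher in Lgr5+ and 6 in Lgr6+ cells, with a median log2 change of 0.34 that was 0.25 after quantile normalization and 0.88 with scaling to the same sum. *Scx*, a tendon and connective tissue factor, was the most abundant, with an FPKM of 29.5 in Lgr5+ and 69.7 in Lgr6+ cells. *Twist1*, a mesenchymal factor, had 4.81 and 10.9. *Nhlh1*, a neural factor, had 8.20 and 13.9, and *Tcf15*, a factor of the paraxial mesoderm, had 4.32 and 7.30, a call that was lost after quantile normalization. These 4 genes were called higher in Lgr6+ progenitors, and which cells their RNA came from was not tested.

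The Hes and Hey repressors are bHLH factors that bind DNA. The paper names *Hes1*, *Hes5*, *Hey2* and also *Id1* as Notch targets. It reports these genes as significantly higher in Lgr5+ progenitors by RNA-Seq, and its quantitative PCR as giving the same picture. The Hes and Hey list includes larger differences than the Id genes. Of its 12 genes, *Bhlhe40* and *Bhlhe41* among them, 9 were kept, 6 were called higher in Lgr5+ and 3 in Lgr6+ cells. *Hes5*, *Hey2* and *Hes1* had log2 changes of -2.45, -2.16 and -1.36, and *Bhlhe41* had -2.99, against -1.23 for *Id1*.

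The BMP pathway was read from ligand to nucleus. Of 14 ligand genes 5 were kept, 2 of them called in each direction. *Bmp4* was the most abundant, with an FPKM of 35.7 in Lgr5+ and 3.96 in Lgr6+ cells, a log2 change of -2.89. *Bmp7* had 15.1 and 14.0 and was not past the threshold, and the other kept ligands, *Bmp2*, *Bmp8b* and *Gdf6*, were below 4 in both populations.

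Of 11 genes for BMP receptors and co-receptors 10 were kept, with 4 called in each direction. The median log2 change was -0.17, a value whose sign depends on the setting, since it was 0.06 with scaling to the same sum and -0.45 with a minimum FPKM of 5. *Acvr2b*, a type II receptor shared with activins, was the most abundant, with an FPKM of 48.1 in Lgr5+ and 27.0 in Lgr6+ cells. *Rgma* and *Rgmb* encode co-receptors of the repulsive guidance family. *Rgma* had 15.8 and 9.13, and *Rgmb* had 5.73 and 9.97, so these paralogs were called in opposite directions. The calls of *Acvr2b* and *Rgma* were lost when the populations were scaled to the same sum. *Eng*, an endothelial co-receptor, had 1.85 in Lgr5+ and 6.96 in Lgr6+ cells.

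The Smad genes that carry the signal were level. *Smad1*, *Smad4* and *Smad5* had log2 changes between 0.11 and 0.26, none past the threshold, and *Smad9* was not kept. *Smad4*, the common partner, was the most abundant of them, with an FPKM of 11.9 in Lgr5+ and 14.5 in Lgr6+ cells.

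Inhibitors of the pathway were called in both directions. The feedback inhibitors *Smad6* and *Smad7*, which BMP signaling itself induces, were called higher in Lgr5+ progenitors, as *Id1* and *Id3* were. *Smad6* had an FPKM of 19.7 in Lgr5+ and 10.8 in Lgr6+ cells, and its log2 change of -0.81 became -0.56 with scaling to the same sum. *Smad7* had 14.7 and 5.03, a log2 change of -1.38 that was past the threshold under every scaling run. *Bambi*, a decoy receptor that is likewise known as a BMP target, went the other way, with 1.68 in Lgr5+ and 10.5 in Lgr6+ cells. *Smurf1*, a ubiquitin ligase for Smads, had 4.60 and 11.9.

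Of 17 extracellular antagonist genes 10 were kept, with 4 called in each direction. *Fstl1*, a secreted glycoprotein that binds BMPs, was the most abundant, with an FPKM of 1395 in Lgr5+ and 553 in Lgr6+ cells, levels like those of *Id1*. *Fst*, the activin antagonist follistatin, had 14.4 and 3.26. *Nbl1*, a member of the DAN family, had 2.62 in Lgr5+ and 20.6 in Lgr6+ cells, and *Sostdc1*, which also acts on Wnt signaling, had 6.64 and 12.6. *Noggin* (*Nog*), the classical antagonist, was near the floor, at 1.20 and 0.3998. Among 7 other transcription factor genes listed as BMP targets, 2 were kept, and 1 was called higher in Lgr5+ progenitors. This was *Atoh8*, which is also on the class II list, with an FPKM of 2.92 in Lgr5+ and 0.263 in Lgr6+ cells, a log2 change of -1.63 that kept its call under all 4 other scalings. *Tbx2*, the most abundant, had 75.9 and 57.5 and was not past the threshold.

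**Figure D4:**
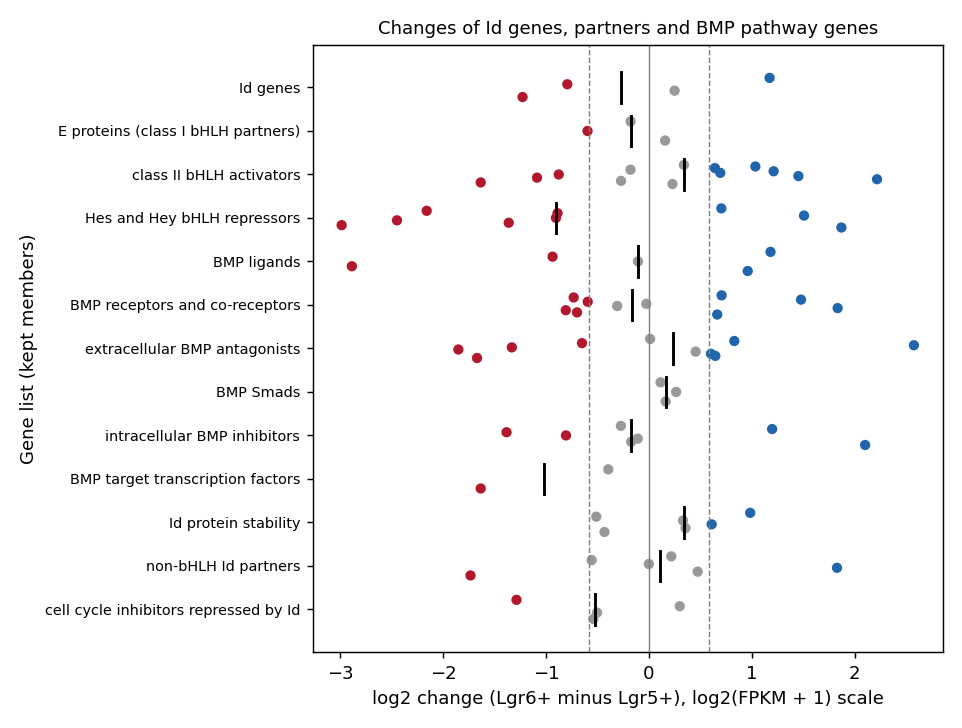
Each point is the log2 change (horizontal axis, Lgr6+ minus Lgr5+) of a kept gene in a list (vertical axis), colored red when called higher in Lgr5+ progenitors, blue when called higher in Lgr6+ progenitors and grey otherwise, and the black bars are list medians. The Id genes, BMP receptors and BMP inhibitors spread to both sides of 0, while the 3 kept BMP Smad genes lie between 0.11 and 0.26.

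Genes that set the life span of Id proteins were mostly level. Of 6 such genes none was called higher in Lgr5+ progenitors and 2 were called higher in Lgr6+ progenitors. These were *Wdr48*, the activating partner of the deubiquitinase Usp1, with an FPKM of 4.62 and 10.1, and *Huwe1*, a ubiquitin ligase, with 10.95 and 17.2. *Cops5*, a subunit of the COP9 signalosome, was the most abundant, with 59.0 and 43.5. *Rb1*, the retinoblastoma protein that Id2 binds, had 8.38 and 9.90 and was the highest of 8 genes for Id partners outside the bHLH family. Of 5 genes for inhibitors of cyclin-dependent kinases, several of which E proteins activate, *Cdkn1c* was the highest, with 173 in Lgr5+ and 213 in Lgr6+ cells. It was not past the threshold. Of this list 4 genes were kept, 3 of them with the lower level in Lgr6+ progenitors, and the median log2 change was -0.52. *Cdkn2b*, with 1.77 in Lgr5+ and 0.133 in Lgr6+ cells, was the gene called, and *Cdkn1a* and *Cdkn1b* were under the threshold.

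Over all 138 genes of these partner and pathway lists, 77 were kept, of which 24 were called higher in Lgr5+ and 24 in Lgr6+ cells. This is 31.2% in each direction, against 23.3% toward Lgr5+ and 28.5% toward Lgr6+ cells over all kept genes. The median log2 change of the 77 genes was -0.03, against 0.03 over all kept genes. This balance holds on the deposited scale. With scaling to the same sum, 17 were called higher in Lgr5+ and 33 in Lgr6+ cells, and after quantile normalization 27 and 21. On the deposited scale, calls in both directions were found within the Id, receptor, ligand and inhibitor lists, as they were over all kept genes.

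The genes nearest to each Id gene were found by the Euclidean distance over log2(FPKM + 1) in the 2 populations. Nearest to *Id4* were *Kncn*, at a distance of 0.012, and *Mpzl1*, at 0.043. *Ndufb6* and *Sdhb* were nearest to *Id2*, at 0.056 and 0.074, and *Rps25* and *Lsm7* were nearest to *Id3*, at 0.086 and 0.15. For *Id1* the nearest genes, *Cd63* and *Ngfrap1*, were farther away, at 0.30 each. With only 2 values per gene, such likeness says that level and change are similar and nothing more.

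The labelled identity of the cells was checked against other genes. By the paper, Lgr6 marks some of the inner pillar cells, which themselves belong to the wider Lgr5+ population. The 2 populations are thus nested and are not separate cell types. *Lgr5* had an FPKM of 9.65 in Lgr5+ and 25.0 in Lgr6+ cells. *Lgr6* had 2.06 and 2.90, low levels with a log2 change of 0.35 that was not past the threshold. Neither sorting gene was higher in the Lgr5+ population. The SC marker *Sox2* had 139.6 in Lgr5+ and 54.8 in Lgr6+ cells. The other defining SC markers, *Prox1* with 6.12 and 4.38 and *Fgfr3* with 82.5 and 66.1, were not past the threshold. The 10 SC markers summed to 3705 and 3712, of which 2 were called higher in Lgr5+ and 1 in Lgr6+ cells. *S100a1* alone held 2959 and 3177 of these sums, so they say little of the other markers. Of the 10 markers 8 had the lower level in Lgr6+ progenitors and 2 the higher, with a median log2 change of -0.36. In pooled cells, fewer cells of a type and less RNA per cell cannot be told apart.

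Markers of other cell types were compared between the same populations. Of 10 HC markers, 6 were called higher in Lgr6+ progenitors and none in Lgr5+ progenitors, and their FPKM summed to 1276 and 1903. Their defining genes *Myo7a*, *Pou4f3* and *Atoh1* were above 0 in both populations. Of 10 endothelial markers 9 were called higher in Lgr6+ progenitors and 1 in Lgr5+ progenitors. These markers summed to 34.7 in Lgr5+ and 183 in Lgr6+ cells. Of their defining genes, *Pecam1* had 0.303 and 8.31 and *Cdh5* had 1.24 and 10.1. *Kdr*, the third, was listed at 0 in Lgr5+ progenitors. Of 10 macrophage markers 8 were kept, all called higher in Lgr6+ progenitors, with sums of 3.88 and 264. In Lgr5+ progenitors 6 of the 10 were listed at 0, the defining *C1qb* and *C1qc* among them. *C1qa*, the other defining gene, had 0.905 in Lgr5+ and 16.2 in Lgr6+ cells.

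For 10 mesenchyme and fibrocyte markers the FPKM sums were 335 in Lgr5+ and 376 in Lgr6+ cells, with 4 called higher in Lgr6+ progenitors and 1 in Lgr5+ progenitors. The most abundant of them in Lgr5+ progenitors were *Lum*, with 179 and 101, and *Dcn*, with 91.8 and 74.9. Of the 10 markers 7 had the higher level in Lgr6+ progenitors and 3 the lower, with a median log2 change of 0.53. The 10 neuron markers summed to 153 and 151, with 3 called higher in Lgr5+ and 2 in Lgr6+ cells. The defining mesenchymal genes *Col1a1*, *Col1a2* and *Col3a1* and neuronal genes *Tubb3*, *Nefl* and *Nefm* were above 0 in both populations. *Col1a1* had 1.21 in Lgr5+ and 2.16 in Lgr6+ cells, *Col1a2* had 15.8 and 90.2, and *Col3a1* had 5.07 and 32.4. The part of any of these cell types in the Id levels, that of HCs, endothelial cells and macrophages included, was not tested.

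The table holds no counts, and the depth behind the Id values was read only indirectly. Low FPKM values multiplied by transcript length, less 200 bases, piled up at 0.128 in Lgr5+ progenitors and at 0.0402 in Lgr6+ progenitors, in units of FPKM times kilobases. If such a step is 1 fragment, *Id4*, at a transcript length of 1660 bases in the NCBIM37 annotation, rested on 256 fragments in Lgr5+ and 1881 in Lgr6+ cells, the fewest of any Id gene. *Id3* rested on 12817 and 23545. The cDNA was amplified before sequencing, so fragments are not independent molecules, and the step may be a share of several libraries.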

How the data were processed

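RNA-Seq libraries of sorted Lgr5+ and Lgr6+ cochlear cells were made with a low-input cDNA amplification kit. Reads were trimmed with Trimmomatic, mapped with TopHat and quantified with Cufflinks against RefGene, with versions not given in the sources used here. The submitters' processing notes name mm10 and the paper names mm9. Of 22500 symbols matched to RefSeq GRCm38.p6, 98.8% of the table's intervals overlapped the gene, against 12.7% of 20918 in NCBIM37, so positions were read as GRCm38, with starts counted from 1. The deposited FPKM values are combined by the authors per population. The table also holds the authors' own fold changes, p-values and q-values, which were not used.

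The members and lists were chosen with earlier results of these data known. Genes that reached an FPKM of 1 in either population were kept, a pseudocount of 1 was added before the log2 change was taken, and differences from 1.5-fold upward were called. Named genes are the Id genes, the E proteins, the sorting genes, the most abundant gene of each list, up to 4 called genes per list with an FPKM of at least 5 and the largest change, the 2 nearest genes of each Id gene and the first 3 markers of each list. The markers of 1 further cell type are not reported here. *Atoh8*, *Cdkn1a*, *Cdkn1b*, *Cdkn2b*, *Bmp2*, *Bmp7*, *Bmp8b*, *Gdf6*, *Nog*, *Smad1*, *Smad5*, *Smad9*, *S100a1*, *Lum*, *Dcn* and *A330033J07Rik* were named after their values were seen. Alternatives were other pseudocounts, filters, scalings and a 2-fold threshold. Values were computed in Python 3.11.15 with pandas 2.3.3 and numpy 2.4.6, plotted with matplotlib 3.10.9 and tested on simulated data. The paper gives read numbers and mapping rates as a range over its samples, and not the depth of each population. Apart from the steps of low values that depth is unknown, so no counting intervals are given.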

Additional observations from a re-analysis of the deposited data

How the results depend on the processing

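Over the 10 other settings and the reported value, the log2 change ran from -1.23 to -0.96 for *Id1* and from 0.25 to 0.56 for *Id2*. It ran from -0.80 to -0.37 for *Id3* and from 1.17 to 1.43 for *Id4*. No scaling reversed a direction, and the other settings could not have done so. *Id1* and *Id4* stayed past the threshold in each setting. *Id3* fell under it after quantile normalization (-0.37), with scaling to the same sum (-0.53) and with a 2-fold threshold (-0.79 unchanged), which left 1 Id gene called higher in Lgr5+ progenitors in each of these 3 settings. With the 2-fold threshold, 1575 kept genes were called higher in Lgr5+ and 2443 in Lgr6+ cells, against 3136 and 3826 at 1.5-fold, and 13 partner and pathway genes were called in each direction. With scaling to the same sum these partner and pathway counts were 17 toward Lgr5+ and 33 toward Lgr6+ progenitors, against 24 and 24. A minimum FPKM of 5 left 2415 kept genes and 14 partner and pathway genes higher in Lgr6+ progenitors, and requiring an FPKM of 1 in each population left 2392 kept genes. A minimum FPKM of 50, chosen after seeing the data, left 661 kept genes higher in Lgr5+ and 339 in Lgr6+ cells. Fewer genes are tested under these filters, and otherwise the cause was not tested. No paired analysis was possible because the table holds 1 combined value per population, and for the same reason no replicate could be left out.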

Other observations

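Other bHLH families, which are not regarded as main partners of the Id proteins, were examined with lists chosen after the values were seen. All 11 genes of the Myc, Max and Mxd family, which governs growth, were kept, and 2 were called in each direction, with a median log2 change of 0.01. The common partner *Max* had an FPKM of 22.8 in Lgr5+ and 22.9 in Lgr6+ cells, and *Mycl* had 27.1 and 27.4. Of 16 bHLH-PAS genes, which include sensors of oxygen and of xenobiotics and clock factors, 11 were kept, with 2 called higher in Lgr5+ and 4 in Lgr6+ cells. *Hif1a*, the oxygen-regulated subunit, had 34.4 and 39.3 and was the most abundant of them. Of 9 leucine zipper bHLH genes of the Mitf, Usf and Srebf groups, 8 were kept, with 3 called higher in Lgr5+ and 1 in Lgr6+ cells. *Usf2*, a ubiquitous E-box factor, was the most abundant, with an FPKM of 72.1 in Lgr5+ and 34.1 in Lgr6+ cells, a log2 change of -1.06 that is near that of *Id1*.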
